A study of Arabidopsis thaliana with 12 samples.

Results

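The ARGONAUTE genes AGO1 to AGO10 were examined as 1 family in dissected seeds and fruits of the lhp1-6 mutant and of Col-0, the wild type of Arabidopsis thaliana. The family was chosen by its gene identifiers because AGO3 (AT1G31290) is lower in lhp1-6 seed, so the seed values of AGO3 picked it and are described here with no test. The family makes up 10 of the 26925 genes listed in the tables. The other 9 genes entered as its remaining members, whatever their values: AGO1 (AT1G48410), AGO2 (AT1G31280), AGO4 (AT2G27040), AGO5 (AT2G27880), AGO6 (AT2G32940), AGO7 (AT1G69440), AGO8 (AT5G21030), AGO9 (AT5G21150) and AGO10 (AT5G43810). Bulk RNA-seq was made of 4 groups with 3 libraries each: lhp1-6 seed, Col-0 seed, lhp1-6 fruit and Col-0 fruit. lhp1-6 is a mutant allele of LIKE HETEROCHROMATIN PROTEIN 1 (LHP1), and Col-0 carries the intact gene. Both genotypes were raised at 22 °C, and after bolting they were kept at a day temperature of 16 °C and a night temperature of 14 °C. Siliques holding bent-cotyledon embryos were opened by hand 14 to 15 days after the first sight of petals, and the seeds and the remaining fruit of 3 to 5 siliques were pooled per library. No source used here says whether separate plants gave the pools, and the spread that the p-values rest on may thus be partly technical.

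Argonaute proteins hold small RNAs and use them to find matching transcripts, which are cut, held from translation or used to direct DNA methylation to the locus they come from. In plants the family falls into 3 clades. AGO1, AGO5 and AGO10 work mainly with microRNAs, AGO2, AGO3 and AGO7 include the antiviral and trans-acting siRNA members, and AGO4, AGO6, AGO8 and AGO9 belong to RNA-directed DNA methylation. LHP1 is a chromodomain protein that binds the Polycomb mark on histone H3.

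AGO3 and AGO2 are neighbours on chromosome 1 and lie head to tail on the plus strand, 2723 bases apart in the TAIR10.1 annotation (AGO3 at chr1:11188120-11192585, AGO2 at chr1:11181504-11185396). Both are annotated targets of microRNA miR403, and AGO1 is the known target of miR168. The sequences of these microRNAs and of their sites are shown, and their action was not tested. In the microRNAs, taken from the RefSeq annotation of TAIR10.1, capitals mark the seed (bases 2 to 8), and in the sites capitals mark the bases that form no Watson-Crick pair with the microRNA. The site of miR403 lies in the 3′ UTR of AGO3 (chr1:11192399-11192419) and in the 3′ UTR of AGO2 (chr1:11185223-11185243), and that of miR168 lies in the coding sequence of AGO1 (chr1:17891529-17891549, minus strand).
miR403-3p: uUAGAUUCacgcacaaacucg
AGO3 site: GAUguuugugcgugaaucuaa
AGO2 site: Ggaguuugugcgugaaucuaa
miR168a-5p: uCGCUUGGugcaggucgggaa
AGO1 site: uucccgaGcugcaUcaagcUa
The AGO3 site leaves 3 of 21 bases unpaired and the AGO2 site leaves 1, all at the 5′ end of the site, so both pair with the whole seed. The AGO1 site holds 2 mismatches and 1 G:U pair. Among the 8 other members, with G:U pairs counted as unpaired, no stretch had fewer than 6 unpaired bases to miR403-3p, the best being in AGO4. AGO2 and AGO3 transcripts share no identical run longer than 42 bases, and AGO8 and AGO9 none longer than 41, against reads of 100 bases.

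The 250 bases before the annotated start of AGO3 are shown with those of AGO2, the neighbouring paralogue. Both windows are from the plus strand of TAIR10.1 (RefSeq), at chr1:11187870-11188119 and chr1:11181254-11181503. Capitals mark matches, on either strand, to any of 4 short motifs: CATGCA (the RY element of seed maturation factors), AAACCCTA (the telobox) and GAGAGA, which are both known from Polycomb recruitment in Arabidopsis, and ACGTG (the core bound by bZIP factors of the abscisic acid response).
AGO3 upstream: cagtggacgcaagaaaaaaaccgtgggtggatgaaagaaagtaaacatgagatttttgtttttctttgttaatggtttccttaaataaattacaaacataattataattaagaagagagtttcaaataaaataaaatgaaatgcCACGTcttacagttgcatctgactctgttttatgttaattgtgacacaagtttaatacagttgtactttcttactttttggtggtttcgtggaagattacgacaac
AGO2 upstream: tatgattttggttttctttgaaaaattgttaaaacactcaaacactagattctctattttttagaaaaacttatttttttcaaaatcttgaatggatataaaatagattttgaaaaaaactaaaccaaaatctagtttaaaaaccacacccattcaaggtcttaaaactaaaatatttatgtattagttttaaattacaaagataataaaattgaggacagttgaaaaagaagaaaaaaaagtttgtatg
AGO3 held 1 ACGTG core, and AGO2 held none of the 4 motifs. Among 27443 windows of the same length, 22.9% held ACGTG, 20.6% GAGAGA, 8.43% CATGCA and 4.49% AAACCCTA. These matches describe the letters only.

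The library labels were checked on LHP1 (AT5G17690), which stood at 0.310 to 0.858 TPM in the 6 lhp1-6 libraries and at 15.3 to 23.7 TPM in the 6 Col-0 libraries. TPM, the abundance of a transcript relative to all transcripts, are scaled by gene length, so levels may be compared between genes. The listed values summed to between 977751 and 986706 per library, and 17620 to 19086 genes reached 1 TPM. An estimated share of seed RNA in the fruit libraries came to 8.32%, 11.1% and 9.13% in lhp1-6 fruit and to 23.3%, 3.65% and 5.59% in Col-0 fruit, so that Col-0 fruit replicate 1 stood apart. In these bulk samples, fewer cells of a type and less RNA per cell cannot be told apart.

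The family sum was higher in seed than in fruit. It was 543 ± 10.6 TPM in lhp1-6 seed and 658 ± 8.45 TPM in Col-0 seed, against 233 ± 3.67 TPM in lhp1-6 fruit and 268 ± 56.5 TPM in Col-0 fruit (SD, n = 3 each). AGO4, the main effector of RNA-directed DNA methylation, was the most abundant member in seed, with 223 ± 6.08 TPM in lhp1-6 and 234 ± 25.2 TPM in Col-0. AGO1, the general microRNA effector, came next in seed and first in fruit. AGO10, which binds miR166 in meristems and embryos, ranked below them in seed in both genotypes, without overlap.

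The order below AGO10 differed between the genotypes in seed. In lhp1-6 seed AGO5 (24.9 ± 1.13 TPM), AGO2 (24.8 ± 0.399 TPM) and AGO9 (23.7 ± 0.884 TPM) followed with overlapping values, and AGO3 was ninth at 4.47 ± 0.305 TPM. In Col-0 seed AGO5 (46.1 ± 3.62 TPM) and AGO9 (39.8 ± 1.54 TPM) followed without overlap, and AGO3 was sixth at 30.3 ± 7.11 TPM, with values that overlapped those of AGO2 (28.6 ± 2.42 TPM). AGO3 therefore held 15.3% ± 0.887 of the summed AGO2 and AGO3 TPM in lhp1-6 seed and 51.0% ± 4.22 in Col-0 seed. Of the whole family sum it held 0.823% ± 0.0427 in lhp1-6 seed and 4.61% ± 1.13 in Col-0 seed, as a description of the values that picked the family.

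In fruit the order was AGO1, AGO9, AGO4 and AGO2 in lhp1-6 and AGO1, AGO4, AGO9 and AGO2 in Col-0, and the values of the neighbours in that order overlapped from the second place to the fourth in both genotypes. AGO9, which acts in the ovule and silences transposons around the female germline, held 19.4% ± 1.60 of the family sum in lhp1-6 fruit and 15.5% ± 2.71 in Col-0 fruit. AGO8, widely taken to be a pseudogene, was last in all 4 groups and never exceeded 0.194 TPM, so it did not pass the filter of 1 TPM in 3 libraries and was not tested. It stood at 0.157 to 0.194 TPM in lhp1-6 fruit and at 0.0458 to 0.0669 TPM in Col-0 fruit.

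**Figure D1:**
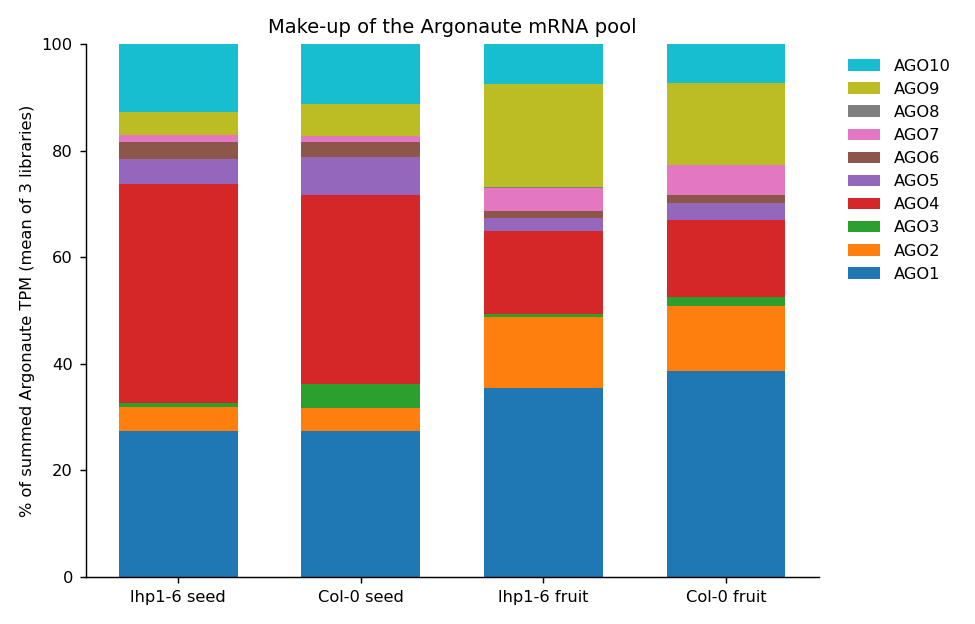
Mean share of each Argonaute gene in the summed Argonaute TPM (y axis, %) for the 4 groups of 3 libraries, stacked from AGO1 to AGO10. AGO3 holds 0.823% in lhp1-6 seed and 4.61% in Col-0 seed, AGO4 is the widest band in seed, and AGO9 is wider in fruit.

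The first question was how the family differs between lhp1-6 and Col-0 in seed. AGO3, the paralogue of AGO2 that has been found to bind siRNAs of the DNA methylation pathway, had 4.61, 4.68 and 4.12 TPM in lhp1-6 seed, against 22.1, 34.5 and 34.3 TPM in Col-0 seed. All 3 lhp1-6 libraries lay far below all 3 Col-0 libraries, and Col-0 replicate 1 was the lowest of its group. The ratio of the means was 0.148, or 6.77 times lower in lhp1-6, and the log2 difference of (TPM + 1) was −2.49. This difference chose the family, so no test is given for it.

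AGO9 fell in lhp1-6 seed. It had 22.9, 24.6 and 23.6 TPM in lhp1-6 seed, against 38.5, 39.4 and 41.5 TPM in Col-0 seed. The groups did not overlap, and the libraries within each lay close together. The log2 change was −0.72 (SE 0.10, limma, Benjamini-Hochberg adjusted p = 0.00232 over 19946 genes). Across 23 alternative settings the change stayed between −0.75 and −0.55 and passed the threshold in all of them.

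AGO9 was the only 1 of the 8 other tested members to pass the threshold of 0.05 in seed. Over all genes, 12.1% passed in this comparison, 1.85% higher and 10.2% lower in lhp1-6, so 1 of 8 is near the background. The median change of all genes in seed was −0.15 and that of the 8 members −0.15. Median-of-ratios rescaling moved the median of all genes by 0.15 and raised the share of calls that were higher in lhp1-6 to 47.5%, and quantile normalisation to 47.9%, against 15.3% as deposited. Relative to the median of all genes, AGO9 was lower by a log2 change of −0.58 and AGO3 by −2.34.

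AGO5, a member of the AGO1 clade known from the germline, had 24.9, 26.0 and 23.7 TPM in lhp1-6 seed, against 42.1, 49.1 and 47.1 TPM in Col-0 seed. The groups did not overlap, but the log2 difference of −0.86 (SE 0.31) missed the threshold (limma adjusted p = 0.0976). The fit shares 1 spread over all 12 libraries, and in fruit AGO5 had 16.0 TPM in Col-0 replicate 1 and 5.02 and 6.07 TPM in the others. Without that library the limma adjusted p was 0.00369, and with the 6 seed libraries alone it was 0.00336.

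AGO1 had 152, 149 and 144 TPM in lhp1-6 seed, against 172, 181 and 186 TPM in Col-0 seed, again with no overlap. Its log2 difference was −0.27 (SE 0.09, limma adjusted p = 0.0661), and without Col-0 fruit replicate 1 the adjusted p was 0.00987. AGO2, an antiviral effector, had 24.4, 25.2 and 24.8 TPM in lhp1-6 seed, against 25.8, 30.1 and 29.8 TPM in Col-0 seed, a log2 difference of −0.19 (SE 0.09, limma adjusted p = 0.188). AGO2 thus did not pass the test, and 1 of its Col-0 libraries lay close to the lhp1-6 values. It also holds a miR403 site, and the part of miR403 in the AGO3 difference was not tested.

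AGO4, AGO6, AGO7 and AGO10 had log2 differences between −0.12 and −0.06 in seed, with adjusted p of 0.746 to 0.928. AGO6, which acts with AGO4 in DNA methylation, had 16.7, 18.8 and 16.7 TPM in lhp1-6 seed, against 20.0, 18.6 and 18.2 TPM in Col-0 seed. AGO7, the partner of miR390 in making trans-acting siRNAs, had 7.61, 8.07 and 6.01 TPM in lhp1-6 seed, against 8.91, 7.57 and 6.60 TPM in Col-0 seed. AGO10 had 69.5, 68.9 and 68.7 TPM in lhp1-6 seed, against 76.0, 73.1 and 71.6 TPM in Col-0 seed. AGO6 and AGO7 overlapped between genotypes, as did AGO4, whereas AGO10 did not, and all 4 differences turned to above 0 under both rescalings. In all, 5 of the 8 members (AGO1, AGO2, AGO5, AGO9 and AGO10) had no overlap between genotypes in seed, all lower in lhp1-6. Over all genes tested, 48.2% had no overlap in seed, 41.5% lower and 6.71% higher in lhp1-6, so the lack of overlap is common in this contrast.

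**Figure D2:**
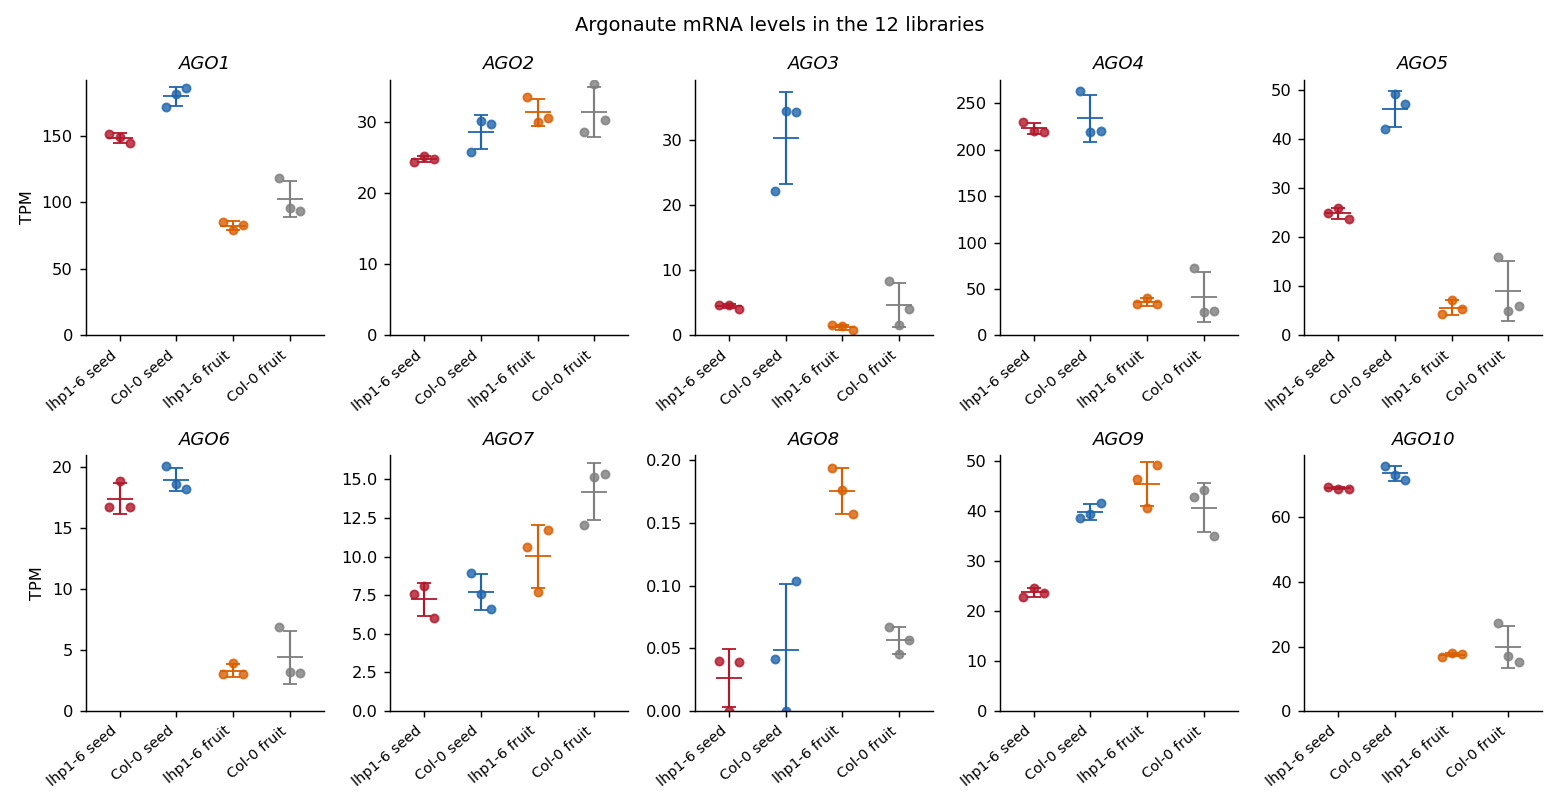
TPM of each Argonaute gene (y axis, from 0, own scale per gene) in lhp1-6 seed, Col-0 seed, lhp1-6 fruit and Col-0 fruit, with 1 point per library and the mean ± SD. AGO3 and AGO9 are lower in lhp1-6 seed than in Col-0 seed, and the highest Col-0 fruit point of AGO1, AGO3, AGO4, AGO5, AGO6 and AGO10 is replicate 1.

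Seed coat markers and the pollen genes VGD1 and LAT52 were lower in lhp1-6 seed, and embryo and endosperm markers were mixed. The summed TPM of 10 seed coat genes was 1407 to 1546 in lhp1-6 seed and 2255 to 2536 in Col-0 seed. All 10 had no overlap and lower values in lhp1-6, against 41.5% of all genes, and 2 of the 10 passed the test, against 10.2% of all genes that passed as lower. These were TT12, a proanthocyanidin transporter (log2 change −0.70, SE 0.20, limma adjusted p = 0.0477) and MUM2, a galactosidase of the mucilage (means of 39.6 TPM in lhp1-6 seed and 80.6 TPM in Col-0 seed, limma adjusted p = 0.0163). None of the 10 was under 1 TPM throughout Col-0 seed. The sum of 6 embryo genes was 405 to 445 TPM in lhp1-6 seed and 441 to 492 TPM in Col-0 seed, with WOX2 under 1 TPM in both. Within this sum LEC1 (means of 85.0 TPM in lhp1-6 seed and 148 TPM in Col-0 seed), LEC2 (7.05 TPM in lhp1-6 seed and 13.3 TPM in Col-0 seed) and WOX8 were lower in lhp1-6 without overlap, whereas FUS3 and ABI3 overlapped, and 0 of the 5 tested genes passed. The sum of 9 endosperm genes was 1269 to 1743 TPM in lhp1-6 seed and 875 to 1461 TPM in Col-0 seed, with 6 of the 9 under 1 TPM in both, among them AGL62, FWA and MEA. Almost all of the endosperm sum was EPR1 (means of 1426 TPM in lhp1-6 seed and 1041 TPM in Col-0 seed, overlapping), and ZOU was lower in lhp1-6 without overlap (21.4 TPM in lhp1-6 seed and 38.9 TPM in Col-0 seed, limma adjusted p = 0.145). Pollen and sperm genes summed to 1.76 to 3.81 TPM in lhp1-6 seed and to 10.5 to 38.4 TPM in Col-0 seed. Almost all of this was VGD1 (means of 1.80 TPM in lhp1-6 seed and 12.3 TPM in Col-0 seed) and LAT52 (1.19 and 8.91 TPM). Both fell in lhp1-6 seed, VGD1 by a log2 change of −2.11 (SE 0.34, limma adjusted p = 0.00564) and LAT52 by −2.01 (SE 0.35, limma adjusted p = 0.00776). MGH3 and GEX2 were under 1 TPM in seed of both genotypes and overlapped. The 4 valve and valve margin genes summed to 164 to 183 TPM in lhp1-6 seed and to 268 to 300.5 TPM in Col-0 seed. Most of this sum was SHP2 (means of 146 TPM in lhp1-6 seed and 254 TPM in Col-0 seed). SHP2 was lower in fruit (104 TPM in lhp1-6 and 91.0 TPM in Col-0), so the sum in seed is no measure of valve tissue. SHP1 and SHP2 fell in lhp1-6 seed (limma adjusted p = 0.0379 and 0.00776). FUL and IND were under 1 TPM in seed of both genotypes and higher in lhp1-6, and IND passed (0.709 TPM in lhp1-6 seed and 0.0598 TPM in Col-0 seed, limma adjusted p = 0.0216). The part of these tissues in the AGO3 and AGO9 differences was not tested.

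AGO3 was tested in fruit, whose values did not choose the family, although the fit takes its spread from the seed libraries too. It had 1.57, 1.45 and 0.854 TPM in lhp1-6 fruit, against 8.36, 1.61 and 4.08 TPM in Col-0 fruit. The lowest Col-0 library was barely above the highest lhp1-6 library, and Col-0 replicate 1 was far above the rest. The log2 difference of −1.14 (SE 0.37) did not pass the threshold (limma adjusted p = 0.0635, or 0.218 with the 6 fruit libraries alone). With the estimated seed RNA share taken off each fruit library, AGO3 came to 1.31, 1.07 and 0.490 TPM in lhp1-6 fruit and to 1.70, 0.520 and 2.53 TPM in Col-0 fruit, which overlap. That subtraction uses the seed means of AGO3, which chose the family, so no test of it is given. Without Col-0 fruit replicate 2 the log2 change was −1.60 and passed (limma adjusted p = 0.00588), and without replicate 1 it was −0.68 (limma adjusted p = 0.0887). After quantile normalisation AGO3 also passed in fruit, with −1.26 (limma adjusted p = 0.0375), and AGO1 did not (limma adjusted p = 0.0653).

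AGO1 was the 1 member of 9 that passed in fruit. It had 85.3, 79.2 and 83.2 TPM in lhp1-6 fruit, against 119, 95.5 and 93.5 TPM in Col-0 fruit. The groups did not overlap, and the log2 change was −0.30 (SE 0.09, limma adjusted p = 0.0422). Over all genes, 14.9% passed in fruit, 5.75% higher and 9.19% lower in lhp1-6. The median log2 change of the 9 members in fruit was −0.27, against −0.03 for all genes. The AGO1 call sat close to the threshold: it ended in 15 of 23 alternative settings, with adjusted p from 0.00891 to 0.196, including with the 6 fruit libraries alone and without any 1 of the libraries other than Col-0 fruit replicates 1 and 3. Of the calls over all genes, 38.5% were higher in lhp1-6, against 46.3% after median-of-ratios rescaling and 52.5% after quantile normalisation.

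AGO7 had 10.6, 7.74 and 11.7 TPM in lhp1-6 fruit, against 12.1, 15.2 and 15.4 TPM in Col-0 fruit, with no overlap and a log2 difference of −0.47 (SE 0.17, limma adjusted p = 0.0831). Without Col-0 fruit replicate 1, AGO7 passed with a change of −0.58 (limma adjusted p = 0.0310). AGO4 had 33.3, 40.8 and 34.1 TPM in lhp1-6 fruit, against 72.3, 25.1 and 26.0 TPM in Col-0 fruit. Col-0 replicate 1 lay above all lhp1-6 libraries and the other Col-0 libraries lay below them, so the log2 difference was −0.01 (SE 0.31), and without that library it was 0.47 (limma adjusted p = 0.00707). AGO9, in contrast to seed, had 46.3, 40.5 and 49.1 TPM in lhp1-6 fruit, against 42.7, 44.2 and 35.0 TPM in Col-0 fruit. These overlap, and the log2 difference was 0.16 (SE 0.10, limma adjusted p = 0.311). AGO2, AGO5, AGO6 and AGO10 also overlapped, with log2 differences of −0.46 for AGO5, −0.27 for AGO6, −0.13 for AGO10 and 0.00070 for AGO2. Apart from AGO3, 2 tested members (AGO1 and AGO7) thus had no overlap in fruit, both lower in lhp1-6. Over all genes tested, 26.9% had no overlap in fruit, 15.6% lower and 11.3% higher in lhp1-6.

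**Figure D3:**
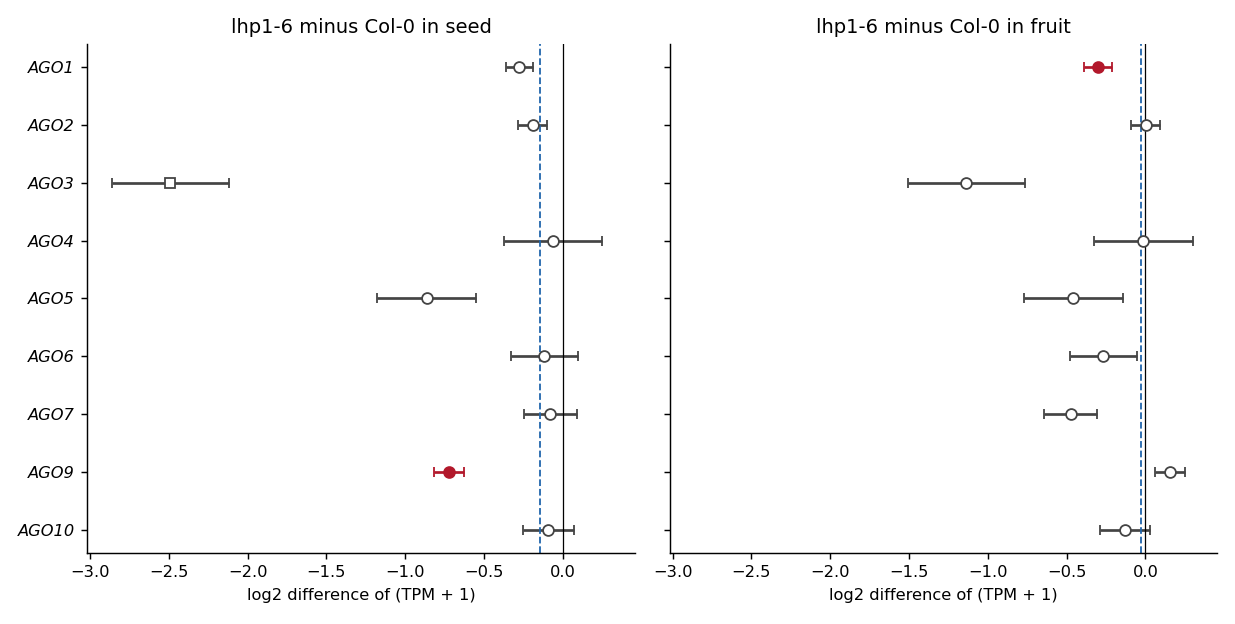
Log2 difference of (TPM + 1), lhp1-6 minus Col-0, in seed (left) and fruit (right) for the 9 genes above the filter, with bars of 1 SE. Filled red points passed the adjusted p threshold (AGO9 in seed, AGO1 in fruit), the open square is AGO3 in seed, which was not tested, and the dashed line is the median of all genes.

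Whether the lhp1-6 effect differs between seed and fruit was tested for each gene. AGO9 was the 1 member of 8 for which it did: the change in seed minus that in fruit was −0.88 (SE 0.14, limma adjusted p = 0.00628), as AGO9 was lower in lhp1-6 seed and not in lhp1-6 fruit. Relative to the median of all genes, −0.14, this is −0.74. Over all genes 5.51% passed, 1.72% with a positive and 3.80% with a negative difference, and the count over all genes was 497 with the replicate block that pairs fruit and seed, against 1100 without it. AGO9 stayed past the threshold in all 22 alternative settings, with adjusted p from 0.00114 to 0.0398. Of the calls over all genes 31.2% were positive, against 49.9% after median-of-ratios rescaling and 44.9% after quantile normalisation. The differences of the other 7 members lay between −0.41 for AGO5 and 0.39 for AGO7, and for AGO3, described with no test, the value was −1.35. Without Col-0 fruit replicate 1, AGO5 (−0.87, limma adjusted p = 0.0203) and AGO4 (−0.54, limma adjusted p = 0.0244) passed as well.

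Seed and fruit were compared within each genotype, with the AGO3 values again given as a description. AGO3 was 3.47 times higher in seed than in fruit in lhp1-6 and 6.47 times higher in Col-0. In lhp1-6, all 8 other tested members passed, 5 higher in seed (AGO1, AGO4, AGO5, AGO6 and AGO10) and 3 lower (AGO2, AGO7 and AGO9). Over all genes 80.4% passed in lhp1-6, 39.3% higher and 41.1% lower in seed. In Col-0, 6 of 8 passed, the same 5 higher in seed and AGO7 lower, against 83.0% of all genes, 45.3% higher and 37.7% lower in seed. The members' share of calls is thus near that of all genes in both genotypes.

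AGO4 had the largest tested difference between tissues in both genotypes. It rose in seed by a log2 change of 2.60 (SE 0.31, limma adjusted p = 1.88e-05) in lhp1-6 and 2.65 (SE 0.31, limma adjusted p = 1.40e-05) in Col-0. AGO6 rose by 2.10 (SE 0.21) in lhp1-6 and 1.95 (SE 0.21) in Col-0. AGO5 rose by 1.98 (SE 0.31) in lhp1-6 and 2.39 (SE 0.31) in Col-0, and AGO10 by 1.92 (SE 0.16) in lhp1-6 and 1.88 (SE 0.16) in Col-0. AGO1 rose less, by 0.84 (SE 0.09) in lhp1-6 and 0.81 (SE 0.09) in Col-0.

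AGO9 went the other way from AGO4 and AGO6, its partners in the methylation clade. In lhp1-6 it fell in seed by a log2 change of −0.90 (SE 0.10, limma adjusted p = 7.95e-06), with 22.9 to 24.6 TPM in seed and 40.5 to 49.1 TPM in fruit. In Col-0 it had 38.5 to 41.5 TPM in seed and 35.0 to 44.2 TPM in fruit, which overlap (log2 difference −0.02, SE 0.10, limma adjusted p = 0.829). AGO2 fell in lhp1-6 seed against fruit by −0.32 (SE 0.09, limma adjusted p = 0.00668), which did not pass after quantile normalisation (−0.17, limma adjusted p = 0.0783). In Col-0 the difference was −0.13 (limma adjusted p = 0.198), or −0.29 after median-of-ratios rescaling, which passed (limma adjusted p = 0.00869). AGO7 fell in Col-0 seed by −0.81 (SE 0.17, limma adjusted p = 0.000890). In lhp1-6 the AGO7 values of 6.01 to 8.07 TPM in seed and 7.74 to 11.7 TPM in fruit overlapped, and the change of −0.41 (SE 0.17, limma adjusted p = 0.0401) did not pass with the replicate block (limma adjusted p = 0.0945). It also failed after quantile normalisation (−0.31, limma adjusted p = 0.132), with no filter, with the 6 lhp1-6 libraries alone, without lhp1-6 replicate 1 or 3 of either tissue and without Col-0 seed replicate 2, with adjusted p from 0.0508 to 0.151. Median-of-ratios rescaling moved the median of all genes by −0.15 in Col-0, and quantile normalisation moved it by 0.17 in lhp1-6.

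The wider silencing machinery was read through 5 lists of 64 tested genes. In lhp1-6 seed against Col-0 seed 0 of 64 rose and 3 fell at the adjusted threshold (limma). Over all genes 1.85% rose and 10.2% fell at that same threshold. At an unadjusted limma p under 0.05, 0 of the 64 rose and 13 fell. The share of all genes at that p was not computed, so these counts are not read as a result about the lists. The median log2 change in seed was −0.13 for the 64 genes and −0.15 for all genes. CLSY3, a chromatin remodeller that recruits RNA polymerase IV in reproductive tissue, had 20.4, 24.2 and 20.4 TPM in lhp1-6 seed, against 32.4, 35.6 and 37.5 TPM in Col-0 seed. The groups were well apart (log2 change −0.68, SE 0.16, limma adjusted p = 0.0226), and the call ended after median-of-ratios rescaling (−0.51, limma adjusted p = 0.0626) or without lhp1-6 seed replicate 1 or 3 or Col-0 seed replicate 2 or 3 (adjusted p from 0.0720 to 0.0949). RDR1, an RNA-dependent RNA polymerase of virus defence, had 2.70 to 2.81 TPM in lhp1-6 seed and 3.74 to 4.27 TPM in Col-0 seed (log2 change −0.41, SE 0.10, limma adjusted p = 0.0282). DRB4, a partner of DCL4, had 23.2 to 24.6 TPM in lhp1-6 seed and 27.0 to 29.5 TPM in Col-0 seed (log2 change −0.23, SE 0.07, limma adjusted p = 0.0485). Both calls ended under both rescalings and without any 1 of the 6 seed libraries, with adjusted p up to 0.397 for RDR1 and 0.686 for DRB4.

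In lhp1-6 fruit against Col-0 fruit 3 of the 64 genes rose and 6 fell by limma, or 14.1% in all, against 14.9% of all genes (5.75% higher and 9.19% lower), so the lists are at the background here. HYL1, the double-stranded RNA binding partner of DCL1 in microRNA processing, had 20.0, 20.5 and 21.0 TPM in lhp1-6 fruit, against 13.9, 13.0 and 14.2 TPM in Col-0 fruit. The groups were clearly apart (log2 change 0.54, SE 0.10, limma adjusted p = 0.00582), and the call held in all 23 alternative settings. SGS3, which stabilises RNA for siRNA synthesis, rose by 0.64 (SE 0.13, limma adjusted p = 0.0107), with 13.6 to 14.9 TPM in lhp1-6 fruit and 7.15 to 11.7 TPM in Col-0 fruit. SHH1, a reader of histone methylation in the polymerase IV pathway, rose by 0.34 (SE 0.08, limma adjusted p = 0.0135), with 19.1 to 20.3 TPM in lhp1-6 fruit and 14.6 to 15.8 TPM in Col-0 fruit.

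The 6 genes that fell in lhp1-6 fruit were spread over 4 lists. FBW2, an F-box protein that targets AGO1, had 50.2 to 57.5 TPM in lhp1-6 fruit and 62.1 to 72.1 TPM in Col-0 fruit (log2 change −0.31, SE 0.08, limma adjusted p = 0.0251). RDR1 had 11.3 to 13.1 TPM in lhp1-6 fruit and 14.9 to 19.0 TPM in Col-0 fruit (log2 change −0.46, SE 0.10, limma adjusted p = 0.0138). The DNA demethylase gene DML3 fell by −0.56 (SE 0.12, limma adjusted p = 0.0126), a call that ended after quantile normalisation (−0.54, limma adjusted p = 0.0728) and with a pseudocount of 0.1 (limma adjusted p = 0.0995). Of 8 small RNA targets, ARF2 (−0.49), ARF4 (−0.40) and CNA (−0.45) fell, where ARF2 and ARF4 are cut by the trans-acting siRNAs that AGO7 helps to make and CNA is a target of miR166. In seed 0 of the 8 targets passed the adjusted threshold (limma). At an unadjusted limma p under 0.05, 2 of them were lower, and nothing is read from this count, as the share of all genes was not computed. The median log2 change of the 8 targets in seed was −0.05, against −0.15 for all genes. The count in fruit was 20 of 64 without Col-0 fruit replicate 1, where 5730 of all 19946 genes passed. It was 1 of 64 when only the 6 fruit libraries were fitted, where 875 of all 19946 genes passed. The list count thus moved in the same direction as that of all genes. The FBW2 and ARF4 calls ended without lhp1-6 fruit replicate 2 or 3 or Col-0 fruit replicate 3, and that of ARF4 also without Col-0 fruit replicate 2, with adjusted p from 0.0567 to 0.108, and the RDR1 call ended without lhp1-6 fruit replicate 2 (limma adjusted p = 0.0543). After quantile normalisation the FBW2 call ended (limma adjusted p = 0.0533), as did that of ARF4 (0.0525, and 0.0577 after median-of-ratios rescaling).

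The lhp1-6 effect differed between seed and fruit for 2 of the 64 genes (3.12%, against 5.51% of all genes), HYL1 (−0.73, SE 0.14, limma adjusted p = 0.0181) and SHH1 (−0.53, SE 0.11, limma adjusted p = 0.0194). HYL1 had 24.1 to 32.4 TPM in lhp1-6 seed and 29.1 to 33.7 TPM in Col-0 seed. With the replicate block neither passed (limma adjusted p = 0.0521 for HYL1 and 0.0616 for SHH1). The HYL1 call also ended without Col-0 seed replicate 2 or lhp1-6 seed replicate 3, and that of SHH1 without lhp1-6 seed replicate 1 or 3 or under either rescaling, with adjusted p from 0.0514 to 0.0933.

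Between tissues most methylation genes rose in seed, as AGO4 and AGO6 did. Of 22 genes of RNA-directed DNA methylation, 20 rose in seed in lhp1-6 and 21 in Col-0, against 39.3% of all genes in lhp1-6 and 45.3% in Col-0, with median log2 changes of 1.44 and 1.48. The exceptions were SUVH9 in both genotypes (−0.39 in lhp1-6 and −0.28 in Col-0) and SHH1 in lhp1-6 (−0.18). CLSY4 rose by 2.33 in lhp1-6 and 2.47 in Col-0, NRPE1, the large subunit of RNA polymerase V, by 1.99 and 2.01, and DRM2, the methyltransferase of the pathway, by 1.42 in each. Of 10 genes for keeping or removing DNA methylation, 9 rose in seed in each genotype, led by VIM1 (2.61 in lhp1-6 and 2.84 in Col-0), and DML3 fell (−2.05 in lhp1-6 and −2.59 in Col-0). The list of 16 microRNA genes was mixed, with 8 higher and 3 lower in lhp1-6 seed and 9 higher and 2 lower in Col-0 seed. Over all 5 lists 44 rose and 12 fell in lhp1-6, and 47 rose and 11 fell in Col-0. That is 87.5% called in lhp1-6 and 90.6% in Col-0, against 80.4% of all genes in lhp1-6 and 83.0% in Col-0. The median of all genes was −0.02 in lhp1-6 and 0.12 in Col-0. The 8 listed small RNA precursor genes were not analysed here.

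**Figure D4:**
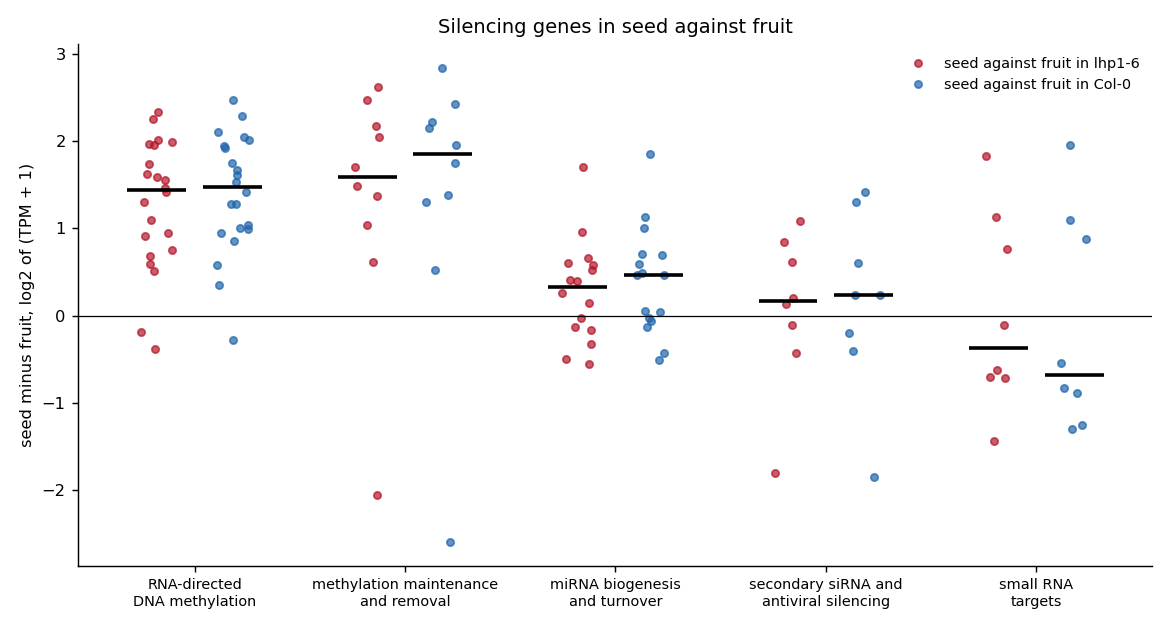
Log2 difference of (TPM + 1), seed minus fruit, for each tested gene of 5 silencing lists in lhp1-6 and in Col-0, 1 point per gene with the median as a bar. Most points of the RNA-directed DNA methylation list lie above 0, with medians of 1.44 in lhp1-6 and 1.48 in Col-0.

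Across the 12 libraries, the genes whose log2(TPM + 1) followed AGO3 most closely were found among 17167 genes. They were AT1G61090 (Pearson r = 0.995), AT4G18320 (0.992), AT1G61093 (0.992), AT4G29640 (0.992), AT1G70970 (0.989) and AT1G61095 (0.989). All 6 were highest in Col-0 seed, which follows from their choice by likeness to AGO3 and is no separate result. Only in that group did their means reach 5 TPM. AT1G61090 averaged 1.45 TPM in lhp1-6 seed and 13.9 TPM in Col-0 seed. AT1G61095 averaged 2.99 TPM in lhp1-6 seed and 22.1 TPM in Col-0 seed. Within the family, the likeness to AGO3 was highest for AGO5 (r = 0.882) and AGO1 (0.872), and lay between 0.719 and 0.753 for AGO4, AGO6 and AGO10. It was −0.0542 for AGO9, −0.288 for AGO2 and −0.432 for AGO7. These values are a description of libraries that share tissue and genotype in groups of 3.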

How the data were processed

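Per the labels, total RNA of pooled seeds or fruits was taken with a column kit and sequenced on a DNBSEQ instrument as paired reads of 100 bases, with a stated minimum of 25 M reads per library. Per the submitters' processing notes, reads were processed with STAR 2.5, cutadapt 1.9.1 and featureCounts, whose version was not stated, on TAIR10. The values deposited by the authors are TPM per gene, 1 table of 26925 genes per library. TPM keep no depth and sum to a fixed total, so no counting intervals are given and a rise of some genes lowers others. No source used here states how strand was handled, so overlapping or antisense genes may share reads.

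Changes were tested on log2(TPM + 1) in limma 3.58.1 (R 4.3.3), which scale understates changes of low genes. All 12 libraries were fitted with 1 mean per group, mean-trended moderated variances and no block, over the 19946 genes that reached 1 TPM in 3 or more libraries. P-values were adjusted by Benjamini-Hochberg over all of them (threshold 0.05). The steps were tested on simulated data. Same-numbered fruit and seed libraries of a genotype deviated together weakly (correlations of 0.311, 0.202 and 0.128 in lhp1-6 and of 0.192, 0.113 and 0.185 in Col-0). No source used here says whether the numbers pair them, so the main fit has no block and a block by number is an alternative. Blocked values are printed beside calls that they change.

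The members, the silencing and marker lists and the tests were chosen with earlier results of these data known. Named genes are all members, LHP1, up to 4 genes per silencing list by smallest adjusted p in the lhp1-6 comparisons of which those past the threshold are given, the 3 genes on either side of AGO2 and AGO3, and the 6 most like AGO3. CLSY4, NRPE1, DRM2, VIM1 and SUVH9 were named after their values were seen. The seed RNA share of a fruit library is the 1st percentile of its TPM ratio to the genotype's seed mean, among genes of at least 50 TPM in each seed library, without storage and late embryogenesis genes. The settings varied were the pseudocount (0.1 and 5), the filter (none and 5 TPM), median-of-ratios and quantile scaling, no mean trend, array weights, the 6 libraries of a comparison alone, the seed share taken off, a replicate block and leaving out each library. Sequences and their coordinates come from TAIR10.1 (RefSeq), not from the authors' files. The upstream windows of the other members are not reported here.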

Additional observations from a re-analysis of the deposited data

Results flagged for a closer look

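AGO9 was flagged because its lhp1-6 effect differs between the tissues by the test of the difference itself: the log2 change in seed minus that in fruit was −0.88 (SE 0.14, limma adjusted p = 0.00628). In seed all 3 lhp1-6 libraries lay below all 3 Col-0 libraries, and in fruit the genotypes overlapped. The value was −0.73 after median-of-ratios rescaling (limma adjusted p = 0.0137) and −0.94 with the seed share taken off fruit (limma adjusted p = 0.0029). With the replicate block it stayed at −0.88, closer to the threshold (limma adjusted p = 0.0398). Seed coat markers were also lower in lhp1-6 seed (1407 to 1546 summed TPM, against 2255 to 2536 in Col-0 seed) and overlapped in fruit (355 to 428 in lhp1-6, 259 to 833 in Col-0). In the test of the difference between tissues, 0 of the 10 seed coat genes passed (limma), against 5.51% of all genes. The part of these markers in the AGO9 difference was not tested.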

How the results depend on the processing

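Of 41 tested changes of single Argonaute genes, 17 kept their direction and their side of the threshold of 0.05 under each of the 23 alternatives (22 for the difference between tissues), among them AGO9 in seed and in the difference between tissues and AGO1, AGO4, AGO5, AGO6 and AGO10 between seed and fruit in both genotypes. The number of members past the threshold in fruit was 1, but 0 with no mean trend, with array weights, with the 6 libraries alone and with the replicate block, and 3 with the seed share taken off; after quantile normalisation it was again 1, with AGO3 in place of AGO1. In seed it was 1, but 2 with a pseudocount of 5, 4 with array weights, 3 with the 6 libraries alone and 3 with the seed share taken off, and in the difference it was 1, but 2 with array weights. With each library left out in turn these counts ranged over 0 to 3 (fruit), 1 to 3 (seed) and 1 to 3 (difference), the highest in each case without Col-0 fruit replicate 1. The silencing count in fruit was 9, but 1 with the 6 libraries alone and 6 to 20 with a library left out. In seed it was 3, but 0 after median-of-ratios rescaling, 1 after quantile normalisation, 33 with array weights, 18 with the 6 libraries alone, 7 with the seed share taken off and 0 to 10 with a library left out. In the difference it was 2, but 1 after median-of-ratios rescaling, 8 with array weights, 9 with the seed share taken off, 0 with the replicate block and 0 to 15 with a library left out. Changes near 0 turned sign. With array weights, AGO10 in fruit was 0.045, AGO2 in fruit −0.058, AGO4 in fruit 0.33, and the differences of AGO1, AGO10 and AGO6 were −0.061, −0.13 and −0.088. After median-of-ratios rescaling the AGO4 difference was 0.10, its change was 0.11 in seed and 0.011 in fruit, and AGO6, AGO7 and AGO10 in seed were 0.047, 0.074 and 0.082. After quantile normalisation AGO4 was 0.026 in fruit and 0.012 in seed, AGO6, AGO7 and AGO10 in seed were 0.047, 0.10 and 0.057, and AGO9 between seed and fruit in Col-0 was 0.056. With the seed share taken off, the AGO4 difference was 0.041. With a library left out, the ranges that crossed 0 were −0.064 to 0.087 for AGO2, −0.27 to 0.47 for AGO4, −0.74 to 0.0026 for AGO5, −0.43 to 0.041 for AGO6 and −0.29 to 0.11 for AGO10 in fruit. They were −0.11 to 0.026 for AGO4 and −0.17 to 0.032 for AGO7 in seed. For the difference they were −0.081 to 0.088 for AGO1, −0.54 to 0.21 for AGO4, −0.16 to 0.31 for AGO6 and −0.20 to 0.19 for AGO10, and for AGO9 between seed and fruit in Col-0 −0.12 to 0.040. Over all genes the count in fruit was 2980, but 875 with the 6 libraries alone, 4742 with the seed share taken off, and 5730, 1829 and 1900 without Col-0 fruit replicate 1 and lhp1-6 fruit replicates 2 and 3. In seed it was 2410, but 997 and 1069 under the rescalings, 10033 with array weights, 5356 with the 6 libraries alone and 662 to 4154 with a library left out. In the difference it was 1100, but 4214 with array weights, 3033 with the seed share taken off, 497 with the replicate block and 427 to 4085 with a library left out. The replicate block changed no other call on a member than that of AGO1 in fruit (limma adjusted p = 0.0563) and that of AGO7 in lhp1-6 given above. Between genotypes the correlations of same-numbered libraries varied in sign (−0.246, −0.397 and 0.0604 in fruit, 0.421, −0.0293 and 0.125 in seed). That of seed replicate 1 was above each of those between fruit and seed of a genotype. The cause of these shifts was not tested. TPM keep no depth, so the counting error of low members such as AGO3 in fruit and AGO8 cannot be given here. The 3 libraries per group also limit what the tests can show.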

Other observations

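Of the genes on either side of AGO2 and AGO3 on chromosome 1, AT1G31300 fell in lhp1-6 seed, by less than AGO3 differed. In that comparison 10.2% of all genes passed as lower, and the median change of all genes was −0.15. These neighbours were not followed through the alternative settings. Of the 3 before AGO2, ZIP10 was listed at 0 in all 12 libraries, AT1G31270 never exceeded 0.0912 TPM and AT1G31250 never exceeded 1.01 TPM. Of the 3 after AGO3, AT1G31300 had 35.5 to 36.2 TPM in lhp1-6 seed and 42.0 to 43.4 TPM in Col-0 seed (log2 change −0.24, SE 0.05, limma adjusted p = 0.0141), and in fruit the genotypes overlapped (42.6 to 44.2 TPM in lhp1-6 and 41.6 to 43.6 TPM in Col-0). AT1G31310 had 7.22 to 10.6 TPM in lhp1-6 seed and 11.5 to 12.3 TPM in Col-0 seed (log2 difference −0.34, SE 0.23, limma adjusted p = 0.339). LBD4, a LOB-domain transcription factor gene, had 5.95 to 6.86 TPM in lhp1-6 seed and 6.18 to 7.41 TPM in Col-0 seed, which overlap.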
